A study of Mus musculus with 16 samples.

Results

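MAP3K1, the gene that encodes the kinase MEKK1, and 9 genes that lie near it on mouse chromosome 13 were followed through 16 expression arrays of mammary fibroblasts. The members were taken by symbol and not by any measured value: MAP3K1, ANKRD55, GPBP1, MIER3, PLK2, PPAP2A, SKIV2L2, DDX4, RAB3C and PDE4D. Of these 10 names, 9 had a row among the 18132 genes of the table, and MIER3 had none under that symbol or an older one, so it was not analysed here. Primary fibroblasts came from the inguinal mammary glands of female 129S6 mice aged 8 to 10 weeks, either MEKK1+/+ or MEKK1-/-, and were grown in DMEM with 10% FBS. They were left in that medium (untreated) or exposed for 8 h to conditioned medium (CM), the same medium harvested from cultures of MDA-MB231, a human breast cancer cell line. Each of the 4 groups (MEKK1+/+ untreated, MEKK1+/+ with CM, MEKK1-/- untreated and MEKK1-/- with CM) had 4 Illumina Mouse 8 arrays, on which a brighter probe means more of its transcript. The study's methods give 3 mice per genotype without tying cultures to mice, so cultures may share an animal, and the spread and every p value below are between cultures. Neither the allele carried by the MEKK1-/- mice nor the place of the MAP3K1 probe within the transcript is described in the sources used here.

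MEKK1 is a large serine/threonine kinase at the top of the mitogen-activated protein kinase (MAPK) cascades. It phosphorylates MAP2 kinases, which in turn activate the JNK and ERK kinases and through them the AP-1 transcription factors, it can act on the IkB kinases that release NF-kB, and it also carries a ubiquitin ligase domain. The genes around it on the chromosome have other roles, given below with each gene. The comparisons asked whether MAP3K1 or a flanking gene differed between the genotypes, in untreated cells and with CM, and whether these genes responded to CM.

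Promoters are shown for 3 members: MAP3K1, the targeted gene, PLK2, which had the largest difference with CM of the members, and GPBP1, the nearest measured neighbour of MAP3K1 on one side. The sequences are those of RefSeq on GRCm38.p6, the C57BL/6J reference and not the 129S6 strain of these mice, from 250 bases before to 50 bases after the start of each gene, and 8 of the 10 names had one, all but ANKRD55 and PPAP2A. They lie at chr13:111808944-111809243 on the minus strand for MAP3K1, chr13:110394794-110395093 on the plus strand for PLK2 and chr13:111490078-111490377 on the minus strand for GPBP1. Capitals mark the letters TGACGTCA, the cyclic AMP response element (CRE).
MAP3K1: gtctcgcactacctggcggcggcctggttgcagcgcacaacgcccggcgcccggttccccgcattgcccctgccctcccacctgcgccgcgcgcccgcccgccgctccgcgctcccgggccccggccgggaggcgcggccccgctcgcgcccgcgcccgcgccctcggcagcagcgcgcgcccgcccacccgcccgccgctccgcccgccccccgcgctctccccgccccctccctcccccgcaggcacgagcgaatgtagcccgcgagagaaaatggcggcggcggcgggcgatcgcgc
PLK2: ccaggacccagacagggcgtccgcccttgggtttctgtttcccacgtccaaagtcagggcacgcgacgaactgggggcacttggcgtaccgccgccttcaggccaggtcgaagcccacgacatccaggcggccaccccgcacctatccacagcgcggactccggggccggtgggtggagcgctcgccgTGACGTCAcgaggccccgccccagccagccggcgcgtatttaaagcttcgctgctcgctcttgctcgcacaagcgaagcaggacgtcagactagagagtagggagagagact
GPBP1: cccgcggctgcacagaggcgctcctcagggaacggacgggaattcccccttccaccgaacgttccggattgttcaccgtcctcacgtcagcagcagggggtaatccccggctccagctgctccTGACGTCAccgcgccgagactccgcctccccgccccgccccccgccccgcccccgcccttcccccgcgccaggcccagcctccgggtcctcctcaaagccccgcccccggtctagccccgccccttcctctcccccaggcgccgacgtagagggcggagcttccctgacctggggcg
The search covered both strands for 3 motifs, none of which can lie within another: TATAAA, the AP-1 motif TGANTCA and the CRE. Of all 32851 promoters of this length in the table, 13.6% held TATAAA, 7.81% held TGANTCA and 1.79% held the CRE. Of the 8 windows of members, 2 held the CRE, those of PLK2 and GPBP1 with 1 each, and 0 held TATAAA or TGANTCA. The windows of MAP3K1, PDE4D, RAB3C, MIER3, DDX4 and SKIV2L2 held none of the 3 motifs. The G and C content of these windows was 82.7% for MAP3K1, 66.3% for PLK2 and 73.7% for GPBP1, against a median of 52.7% over all promoters, and the MAP3K1 window held 55 CG pairs against a median of 7. These are descriptions of the letters in the window, and no binding was measured.

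Across the arrays, the median deposited intensity ran from 114 to 170.1, and it was lowest in MEKK1+/+ cells with CM, at 114 to 122. Levels are therefore given as log2 intensity after quantile normalization, which gives every array the same distribution. Arrays of 1 group correlated at 0.979 to 0.996 over all genes. Background was set on each array at the 99th percentile of 1075 olfactory receptor genes, which fibroblasts are not known to use, and fell between 7.20 and 7.34 on the log2 scale. Of all genes, 6923 (38.2%) were above it on every array and 8251 (45.5%) on none. Of 11 fibroblast markers, 10 were above background on every array. Several further marker lists leaned in a single direction between the genotype labels. Fat cell genes did not, with 2 of 6 lower on arrays labelled MEKK1-/- untreated and 3 with CM. However, 4 of the 6 (ADIPOQ, FABP4, PLIN and CIDEC) were above background on no array, so their directions are not read. The summed normalized intensity of the list was 9330 to 14095 untreated and 5150 to 10709 with CM in MEKK1+/+ cells. On arrays labelled MEKK1-/- it was 3921 to 13946 and 4563 to 7316. Of 16 macrophage genes, 14 were lower on arrays labelled MEKK1-/- in both treatments. The median log2 difference was -0.76 untreated and -0.66 with CM, with 0 past the adjusted threshold (limma). These macrophage genes included 8 untreated and 7 with CM at an unadjusted p under 0.05 (limma), against 9.27% and 8.09% of all genes. Their summed normalized intensity was 9920 to 23294 and 8574 to 23018 in MEKK1+/+ cells, untreated and with CM, and 4556 to 15319 and 4410 to 15079 on arrays labelled MEKK1-/-, with MSR1, FCER1G and ITGAM above background on no array. Of 7 epithelial genes, 6 were higher on arrays labelled MEKK1-/- in both treatments, and 0 had an unadjusted p under 0.05 in either (limma). Only 1 of the 7 was above background on every array. Their summed intensity was 930 to 1025 in MEKK1+/+ cells and reached 11094 untreated and 9958 with CM on the arrays labelled MEKK1-/- and numbered 1, with KRT5 above background on no array. It was 971 and 967 on those numbered 2, within the range of MEKK1+/+ cells, and 1194 to 1478 on those numbered 3 and 4. Of 6 endothelial genes, 5 were higher on arrays labelled MEKK1-/- in both treatments, but 0 of the 6 were above background on every array. The median log2 difference was 0.20 untreated and 0.16 with CM, with 0 past the adjusted threshold (limma). These endothelial genes included 2 untreated and 1 with CM at an unadjusted p under 0.05 (limma), against the same 9.27% and 8.09% of all genes. Their summed intensity was 790.2 to 882 and 755 to 922 in MEKK1+/+ cells, untreated and with CM, and 858 to 1388 and 877 to 1278 on arrays labelled MEKK1-/-, again highest on those numbered 1, with KDR and TIE1 above background on no array. The part of these cells in the results below was not tested, but MAP3K1, PLK2, PPAP2A and the counts of neighbours are also given without both of those arrays. In such mixed cultures, fewer cells of a type and less RNA per cell cannot be told apart.

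Of the 9 measured members, MAP3K1, GPBP1, PLK2, PPAP2A, SKIV2L2 and PDE4D were above background on all 16 arrays. ANKRD55, DDX4 and RAB3C were above it on none, with normalized log2 intensities of 6.62 to 6.88, 6.71 to 6.95 and 6.58 to 6.86. ANKRD55 encodes an ankyrin repeat protein, DDX4 the germ cell RNA helicase also called VASA, and RAB3C a small GTPase of secretory vesicles. For these 3 genes only a bound exists in every group, and no fold is given. The other germ cell genes looked at, DAZL, TDRD1, MAEL and SYCP3, were likewise above background on no array.

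**Figure D1:**
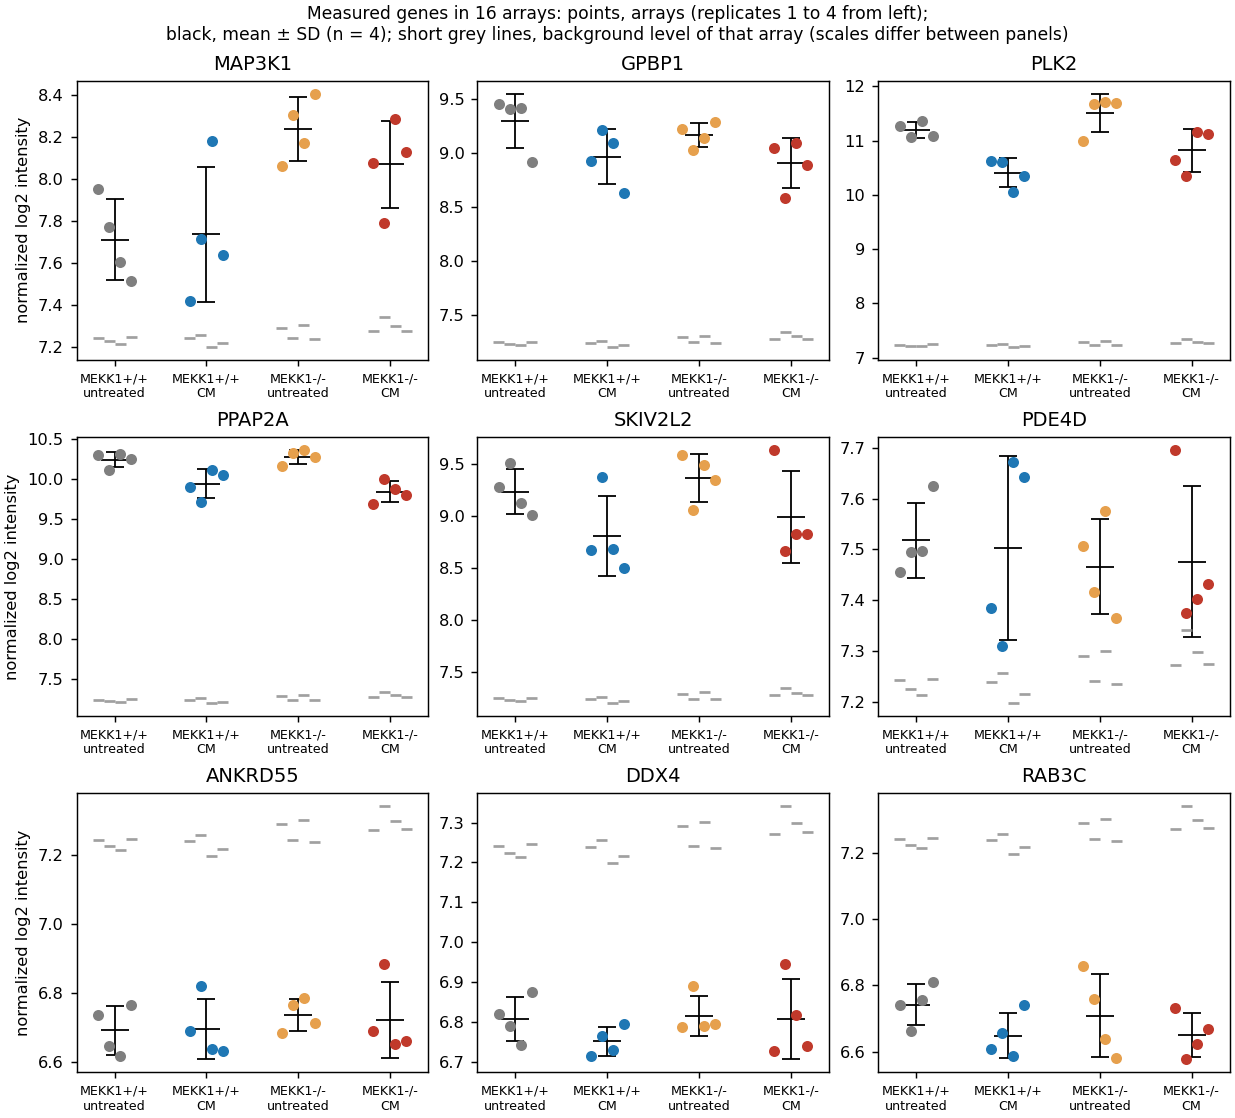
Normalized log2 intensity (y axis, a different scale in each panel) of the 9 measured genes by group, with 1 point per array, replicates 1 to 4 from left to right, black lines for the mean ± SD (n = 4) and short grey lines for the background level of that array. MAP3K1 points of untreated cells labelled MEKK1-/- all lie above those of untreated MEKK1+/+ cells, PLK2 and PPAP2A points drop with CM, and ANKRD55, DDX4 and RAB3C stay under the background lines.

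MAP3K1 signal was present on every array of both genotypes, and it was not lower where the labels give MEKK1-/-. In untreated MEKK1+/+ cells the normalized log2 intensity was 7.95, 7.77, 7.60 and 7.51 in replicates 1 to 4. In MEKK1+/+ cells with CM it was 7.42, 7.71, 8.18 and 7.64. On arrays labelled MEKK1-/- it was 8.06, 8.31, 8.17 and 8.41 untreated, and 8.08, 7.79, 8.29 and 8.13 with CM. All 4 untreated arrays labelled MEKK1-/- were thus above all 4 untreated MEKK1+/+ arrays, while with CM the highest MEKK1+/+ array overlapped the other group. The mean was highest in untreated cells labelled MEKK1-/- (8.24 ± 0.15, SD, n = 4), followed by cells labelled MEKK1-/- with CM (8.07 ± 0.21), MEKK1+/+ cells with CM (7.74 ± 0.32) and untreated MEKK1+/+ cells (7.71 ± 0.20). Each neighbouring pair in that order overlapped. The gene lay close to the limit of detection, 0.18 to 0.98 above the background level on the log2 scale in MEKK1+/+ cells and 0.45 to 1.17 above it on arrays labelled MEKK1-/-.

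In the same order of groups, the deposited intensity of MAP3K1 was 347, 250.4, 221 and 149 in untreated MEKK1+/+ cells and 149, 178, 281 and 163 in MEKK1+/+ cells with CM. It was 219, 351, 298 and 381 in untreated cells labelled MEKK1-/-, and 284, 173, 393 and 296 in cells labelled MEKK1-/- with CM. Before normalization the untreated groups overlapped, since the MEKK1+/+ array of 347 was above 2 of the arrays labelled MEKK1-/-. Because the targeted gene's signal is not lower, these values do not by themselves tell the genotypes apart, and a probe outside a deleted stretch would check nothing, so the groups are called by their labels throughout.

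The MAP3K1 difference between genotypes was 0.53 on the log2 scale in untreated cells (SE 0.15, 95% interval 0.21 to 0.84), or 1.44-fold higher on arrays labelled MEKK1-/-. It did not pass the threshold over all genes (limma, unadjusted p = 0.00296, Benjamini-Hochberg adjusted p = 0.465), and the 2-sided exact permutation test gave p = 0.0286, the smallest that 4 arrays against 4 allow. In that comparison 0 of 18132 genes (0.0%) passed the adjusted threshold of 0.05, 1680 (9.27%) had an unadjusted p under 0.05, and 835 (4.61%) had groups that did not overlap, 2.59% with the arrays labelled MEKK1-/- higher. A change at least as large in either direction was seen for 1.92% of genes. With CM the difference was 0.33 (SE 0.15, interval 0.02 to 0.65, 1.26-fold, adjusted p = 0.605 by limma, exact permutation p = 0.143), where 1 gene (0.00552%) passed over the table and 4.46% of genes changed as much.

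Averaged over both treatments, MAP3K1 was 0.43 higher on arrays labelled MEKK1-/- (SE 0.11, interval 0.21 to 0.65, 1.35-fold). The unadjusted p was 0.000968 and the adjusted p 0.112 (limma), in a comparison where 2 genes (0.011%) passed and 2808 (15.5%) had an unadjusted p under 0.05. Exchanging genotype labels within each treatment gave an exact permutation p of 0.00367, against a smallest possible value of 0.000408. Both this test and limma took same-numbered arrays of the 2 treatments as independent, which ignores their pairing. With the pair of arrays that share a genotype and a number averaged first, MEKK1+/+ values ran from 7.57 to 7.89 and those labelled MEKK1-/- from 8.05 to 8.27 with no overlap, and the exact permutation p was again 0.0286. Under limma with array weights the averaged difference passed (0.48, adjusted p = 0.0358), and it did not pass under any other setting tried. Without both arrays labelled MEKK1-/- and numbered 1, the 3 differences were 0.59, 0.33 and 0.46, with adjusted p = 0.664, 0.731 and 0.184 (limma).

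**Figure D2:**
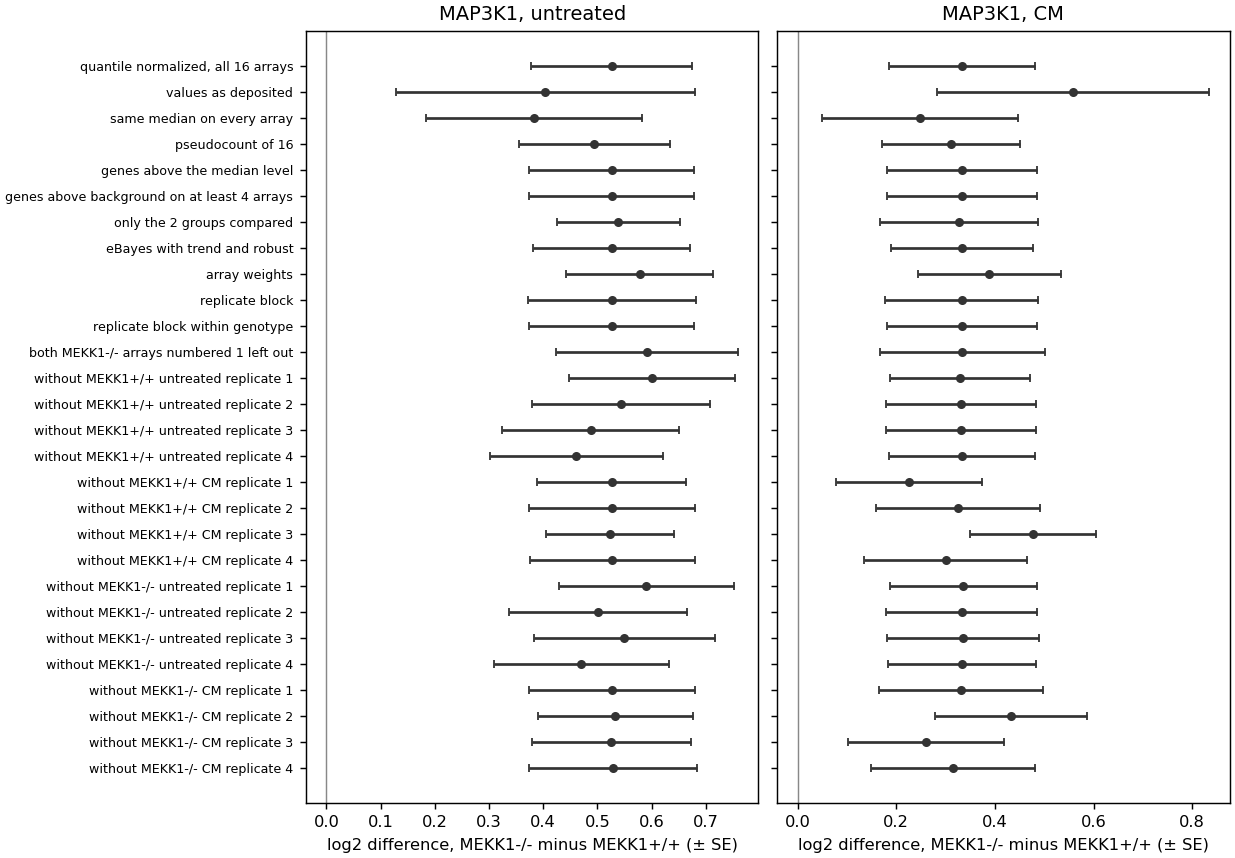
Log2 difference of MAP3K1 between genotypes (x axis, arrays labelled MEKK1-/- minus MEKK1+/+, points with ± SE bars) in untreated cells (left) and with CM (right) under each processing setting and with each array left out. All points lie to the right of 0, between 0.38 and 0.60 untreated and between 0.23 and 0.56 with CM, and the settings on a z-score scale are not drawn.

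The size of the MAP3K1 difference depended on the scaling of the arrays, and its direction did not. On values as deposited, the median difference of all genes was 0.00 in untreated cells and 0.28 with CM. Relative to that median MAP3K1 was 0.40 higher untreated and 0.28 higher with CM, and 0.39% and 1.24% of genes were at least as high. After quantile normalization the corresponding values were 0.52 and 0.33, with 0.53% and 1.98% of genes at least as high. These shares are 96 and 359 of all 18132 genes, many of them at background. Of the 6923 genes above background on every array, 73 and 314 were at least as high, a larger share. MAP3K1 did not respond detectably to CM: the log2 difference between CM and untreated was 0.03 in MEKK1+/+ cells (interval -0.29 to 0.34, adjusted p = 0.968, limma) and -0.17 in cells labelled MEKK1-/- (interval -0.48 to 0.15, adjusted p = 0.688). The interaction, the genotype difference with CM minus that untreated, was -0.19 (interval -0.64 to 0.25, adjusted p = 1.00).

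Of the flanking members, PLK2 had the largest difference with CM. It encodes a polo-like kinase that serum and stress induce early. Its normalized log2 intensity was 11.27, 11.06, 11.36 and 11.09 in untreated MEKK1+/+ cells and 10.62, 10.60, 10.06 and 10.34 with CM. On arrays labelled MEKK1-/- it was 10.99, 11.68, 11.71 and 11.69 untreated and 10.64, 10.35, 11.16 and 11.13 with CM. Every MEKK1+/+ array with CM was below every untreated one, whereas on arrays labelled MEKK1-/- untreated replicate 1 lay below the higher arrays with CM. Each array labelled MEKK1-/- with CM was still below the untreated array of the same number. PLK2 fell by 0.79 with CM in MEKK1+/+ cells (log2, SE 0.20, a 1.73-fold decrease, adjusted p = 0.0300 by limma, exact permutation p = 0.0286). In cells labelled MEKK1-/- the difference was -0.70 (SE 0.20, 1.62-fold, adjusted p = 0.0564, exact permutation p = 0.0857). Of all genes, 909 (5.01%) passed in MEKK1+/+ cells, 498 of them (2.75%) lower, and 851 (4.69%) in cells labelled MEKK1-/-, 456 of them (2.51%) lower, while groups without overlap and lower with CM were found for 5.02% and 5.53%. The response was not shown to differ between genotypes, with an interaction of 0.09 (interval -0.50 to 0.68, adjusted p = 1.00).

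The call in MEKK1+/+ cells lay close to the threshold. It was lost without untreated replicate 1, 2 or 3 or without CM replicate 3 or 4, with adjusted p from 0.0543 to 0.0939 (limma). With single arrays left out, the difference kept its direction and stayed between -0.86 and -0.67. The call was kept under all 13 alternatives other than those with a single array left out. In cells labelled MEKK1-/- the response passed without untreated replicate 1 (-0.87, adjusted p = 0.0145, limma), without CM replicate 3 (-0.81, adjusted p = 0.0481) and without both arrays numbered 1 (-0.81, adjusted p = 0.0313). It also passed with the replicate number as a random block within genotype (adjusted p = 0.0360), among genes above the median level (0.0332) or above background on at least 4 arrays (0.0320), with a trended and robust eBayes (0.0402) and with array weights (0.0254). Between genotypes, PLK2 was 0.32 higher in untreated cells labelled MEKK1-/- (interval -0.10 to 0.74, adjusted p = 0.624, exact permutation p = 0.143) and 0.41 higher with CM (interval -0.01 to 0.83, adjusted p = 0.620, exact permutation p = 0.114), and both pairs of groups overlapped. Averaged over treatments the difference was 0.37 (limma, unadjusted p = 0.0183, adjusted p = 0.226, exact permutation p = 0.0273), with same-numbered arrays taken as independent. It came to p = 0.0857 in the exact permutation test when same-numbered arrays were averaged first. With each array set to the same median, the untreated difference was 0.01. Without untreated replicate 1 labelled MEKK1-/- it was 0.49 (adjusted p = 0.697, limma). Without both arrays labelled MEKK1-/- and numbered 1, the differences were 0.49 untreated, 0.47 with CM and 0.48 averaged (adjusted p = 0.693, 0.676 and 0.196).

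PPAP2A, now named Plpp1, encodes a phospholipid phosphatase of the cell surface that acts on lysophosphatidic acid. Its normalized log2 intensity was 10.30, 10.11, 10.31 and 10.25 in untreated MEKK1+/+ cells and 9.91, 9.71, 10.11 and 10.05 with CM. On arrays labelled MEKK1-/- it was 10.16, 10.33, 10.36 and 10.27 untreated and 9.70, 10.00, 9.87 and 9.80 with CM. The latter pair of groups did not overlap, and in the MEKK1+/+ groups untreated replicate 2 and CM replicate 3 both lay at 10.11. PPAP2A fell by 0.44 with CM in cells labelled MEKK1-/- (SE 0.09, 1.35-fold, adjusted p = 0.0101 by limma, exact permutation p = 0.0286). In MEKK1+/+ cells the difference was -0.30 (SE 0.09, 1.23-fold, adjusted p = 0.0642, exact permutation p = 0.0571), and it passed with the block within genotype (adjusted p = 0.0368), with array weights (adjusted p = 0.0315) and without CM replicate 3 (-0.36, adjusted p = 0.0407). Without both arrays labelled MEKK1-/- and numbered 1 the differences were -0.43 in cells labelled MEKK1-/- (adjusted p = 0.0239) and -0.30 in MEKK1+/+ cells (adjusted p = 0.0508). The interaction was -0.14 (interval -0.40 to 0.13, adjusted p = 1.00). The call in cells labelled MEKK1-/- was lost under 3 alternatives, among them values as deposited (-0.48, adjusted p = 0.891) and a common median (-0.48, adjusted p = 0.0819). Between genotypes the difference was 0.04 untreated (interval -0.15 to 0.22) and -0.10 with CM (interval -0.29 to 0.09), neither past the threshold (adjusted p = 0.923 and 0.781, limma).

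**Figure D3:**
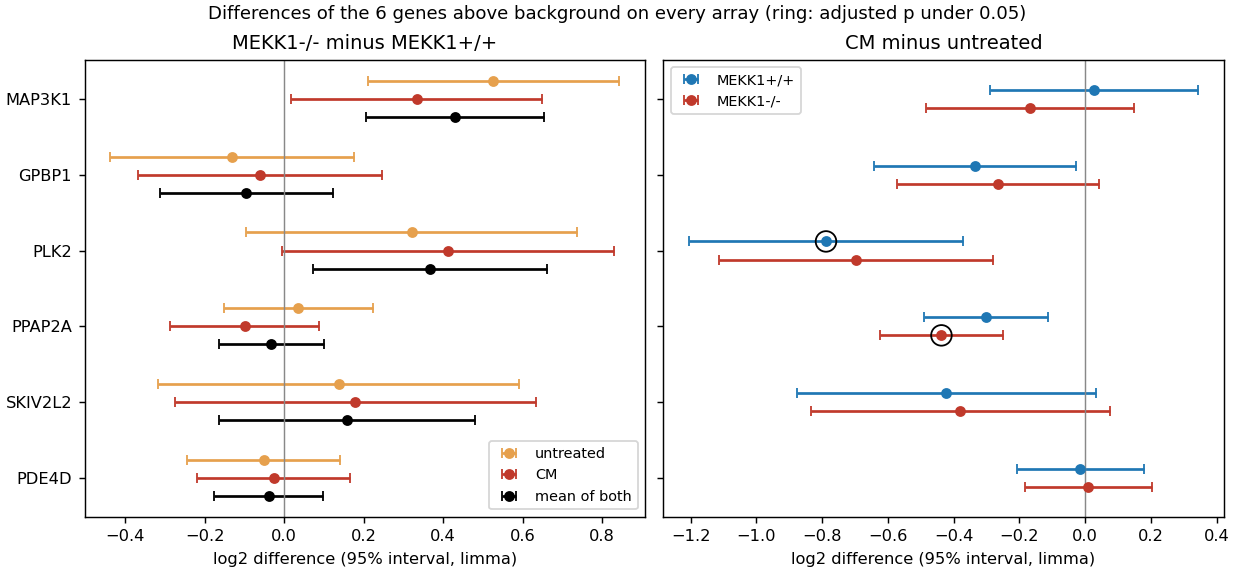
Log2 differences (x axis, points with 95% intervals from limma) of the 6 genes above background on every array, between genotypes on the left (arrays labelled MEKK1-/- minus MEKK1+/+) and between CM and untreated on the right, with a ring where the adjusted p is under 0.05. Rings mark PLK2 in MEKK1+/+ cells (-0.79) and PPAP2A in cells labelled MEKK1-/- (-0.44), and no genotype difference has one.

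The other 3 detected members passed the threshold in no comparison. GPBP1, which encodes a protein that binds GC-rich promoters, had normalized log2 intensities of 9.45, 9.41, 9.42 and 8.92 in untreated MEKK1+/+ cells and 8.93, 9.22, 9.09 and 8.63 with CM. On arrays labelled MEKK1-/- it was 9.23, 9.03, 9.14 and 9.29 untreated and 9.05, 8.58, 9.10 and 8.89 with CM. All groups overlapped, with genotype differences of -0.13 and -0.06 and differences with CM of -0.33 (unadjusted p = 0.0350, adjusted p = 0.244, limma) and -0.26 (adjusted p = 0.410). Without untreated MEKK1+/+ replicate 4, the lowest of its group, the untreated genotype difference of GPBP1 was -0.26 (adjusted p = 0.729). SKIV2L2, now Mtrex, encodes an RNA helicase that feeds transcripts to the nuclear exosome. Its levels ran from 9.01 to 9.51 in untreated MEKK1+/+ cells, from 8.50 to 9.37 with CM, and from 9.05 to 9.58 and 8.66 to 9.63 on the arrays labelled MEKK1-/-, so that all groups overlapped. Its differences were 0.14 and 0.18 between genotypes (adjusted p = 0.860 and 0.841) and -0.42 and -0.38 with CM (adjusted p = 0.346 and 0.427). PDE4D, a phosphodiesterase that breaks down cyclic AMP, stayed between 7.31 and 7.70 on all arrays. Its 4 differences between pairs of groups lay between -0.05 and 0.01, and their 95% intervals between -0.25 and 0.20.

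In all, 0 of the 6 detected members passed the threshold between genotypes (limma), against 0.0% and 0.00552% of all genes. At an unadjusted p under 0.05 MAP3K1 passed in both treatments and no other member did, against 9.27% and 8.09% of genes (11.5% and 10.3% of genes above background on every array). With CM 1 of 6 passed in each genotype, against 5.01% of all genes in MEKK1+/+ cells and 4.69% in cells labelled MEKK1-/- (10.6% and 10.0% of genes above background on every array), and no interaction passed (0.0% of genes).

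The chromosome around MAP3K1 was then read as a whole, through the 40 measured genes nearest to it on each side in the order of RefSeq starts. Of these 80 neighbours 8 are members, 31 were above background on every array and 36 on none. In untreated cells 41 of them were higher and 39 lower on arrays labelled MEKK1-/-, with a median log2 difference of 0.00 against 0.01 for all genes and a median size of 0.08 against 0.07. With CM 40 were higher and 40 lower. These counts include neighbours at background, where no direction is read. Of the 31 above background on every array, 16 were higher and 15 lower untreated, and 13 higher and 18 lower with CM. Their median sizes were 0.15 and 0.13, against 0.12 and 0.12 for all genes above background on every array. Of those 6923 genes, 3852 were higher untreated and 3753 with CM. No neighbour passed the threshold between genotypes in either treatment or in their average (limma, lowest adjusted p = 0.465, 0.427 and 0.121), and 8, 9 and 16 of the 80 had an unadjusted p under 0.05, where the share of all genes was 9.27%, 8.09% and 15.5%. A single neighbour, ESM1, was at least as high as MAP3K1 in untreated cells (0.61, SE 0.26, adjusted p = 0.520), and it was above background on 9 arrays. ESM1, a gene of endothelial cells, was at 8.43 in replicate 1 of the untreated cells labelled MEKK1-/- and at 7.28 to 7.45 in the other 3, and without that array its difference was 0.36 (adjusted p = 0.800, limma). With CM 3 neighbours were at least as high as MAP3K1. In the lower direction the largest neighbour difference was that of EMB, at -0.54 untreated and -0.45 with CM. Both were larger in size than those of MAP3K1 (0.53 and 0.33). EMB was above background on every array and was named after its values were seen. Its groups overlapped in both treatments, with 11.85 to 12.44 in untreated MEKK1+/+ cells and 10.78 to 12.53 in those labelled MEKK1-/-.

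**Figure D4:**
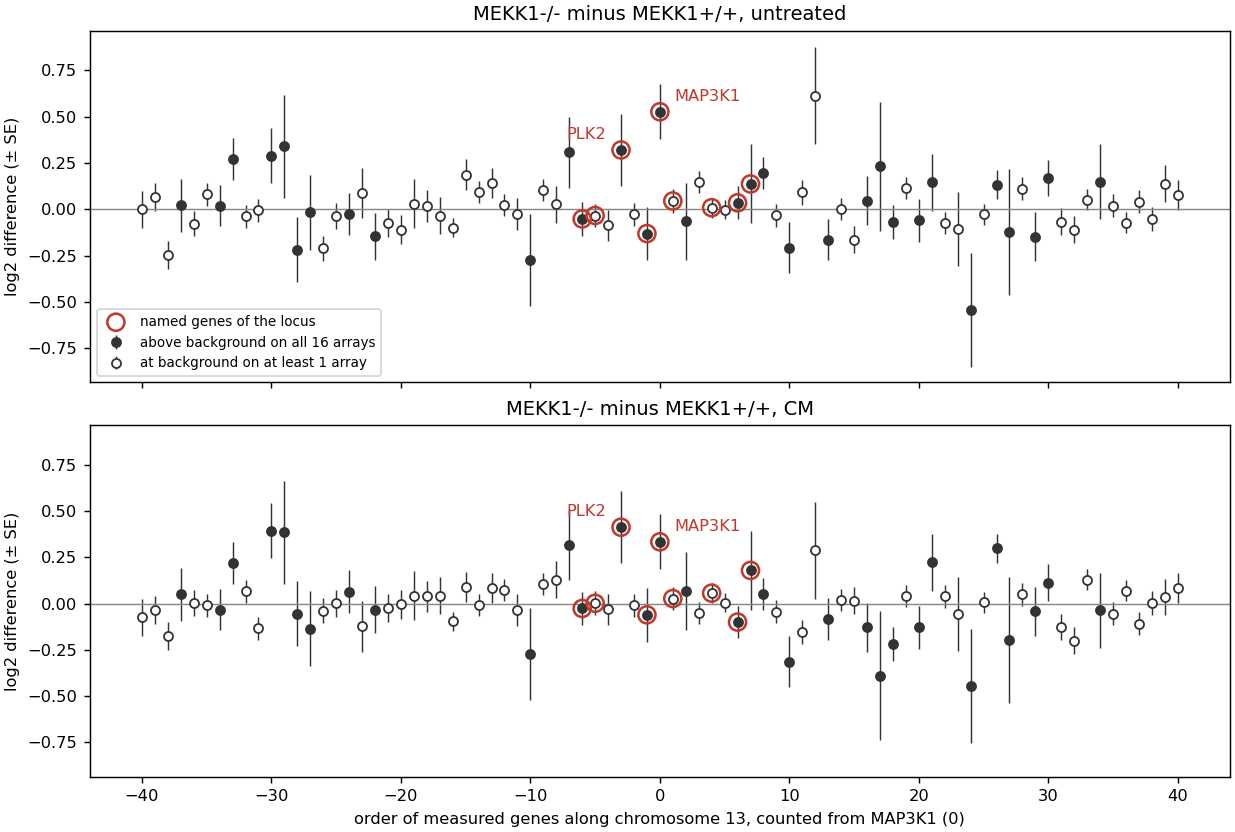
Log2 difference (y axis, arrays labelled MEKK1-/- minus MEKK1+/+, ± SE) of MAP3K1 and the 40 measured genes on each side of it, by their order along chromosome 13 (x axis, MAP3K1 at 0), untreated above and with CM below. Filled points are genes above background on all 16 arrays, red rings are the named genes of the locus, and the differences of the neighbours scatter on both sides of 0 with 41 of 80 and 40 of 80 higher.

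Of the nearest 2 measured genes on each side, only GPBP1 and IL6ST were above background, and they did not separate the genotypes. On one side of MAP3K1 the nearest are GPBP1 and ACTBL2, an actin-like gene that was above background on no array (6.57 to 6.85). On the other they are ANKRD55, also above background on no array, and IL6ST. IL6ST encodes gp130, the shared receptor subunit of the interleukin 6 family. ACTBL2 and ANKRD55 could not show a difference at that level. IL6ST ran from 10.33 to 11.43 over all arrays, with genotype differences of -0.07 and 0.07 (SE 0.21, adjusted p = 0.942 and 0.947, limma). The untreated groups did not overlap for 6 of the 80 neighbours (4.61% of all genes) and with CM for 1 (4.17% of all genes). Among genes above background on every array, this held for 3 of 31 neighbours untreated and 0 with CM, against 324 and 296 of 6923 genes. Of the 6 neighbours untreated, TAF9 (0.27), MRPS30 (0.13) and 4833420G17Rik (0.17) were above background on every array. They were higher where the label is MEKK1-/-, in values that did not pass the test. The other 3, IL31RA, FAM159B and NAIP1, were above background on no array, so that only a bound exists and no direction is read. NAIP1 (6.56 to 7.13) was the neighbour whose groups did not overlap in the same direction in both treatments, as did 56 of all genes (0.309%). Apart from NAIP1, these names were chosen after their values were seen.

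Some neighbours responded to CM in both genotypes, and they are named after their values were seen. With CM 5 of 80 passed in MEKK1+/+ cells (6.25%, against 5.01% of all genes) and 4 in cells labelled MEKK1-/- (5.0%, against 4.69%). PIK3R1, the regulatory subunit of PI3 kinase, fell by 0.82 in MEKK1+/+ cells (SE 0.20, adjusted p = 0.0298, limma) and by 0.94 in cells labelled MEKK1-/- (adjusted p = 0.0151), and its groups overlapped in neither genotype. NLN, a peptidase (-0.45, adjusted p = 0.0349), and Trappc13, listed under its older name (-0.49, adjusted p = 0.0378) fell in MEKK1+/+ cells beside PLK2, with differences of -0.36 and -0.38 in cells labelled MEKK1-/- that did not pass (adjusted p = 0.0984 and 0.117). MOCS2, of molybdenum cofactor synthesis, rose by 0.49 in MEKK1+/+ cells (adjusted p = 0.00633) and by 0.34 in cells labelled MEKK1-/- (adjusted p = 0.0472). MRPS30, of the mitochondrial ribosome, rose by 0.44 in cells labelled MEKK1-/- (adjusted p = 0.00446), with 0.27 in MEKK1+/+ cells (adjusted p = 0.0589). None of these genes passed the interaction (adjusted p = 1.00). Without both arrays labelled MEKK1-/- and numbered 1, 6 neighbours passed in each genotype with CM, where 6.04% of all genes passed in MEKK1+/+ cells and 4.24% in cells labelled MEKK1-/-, and 0 passed between genotypes (limma).

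Of the cascade in which MEKK1 acts, 13 genes were looked at: the MAP2 kinases MAP2K1, MAP2K2, MAP2K4 and MAP2K7, the MAP kinases MAPK3, MAPK8 and MAPK9, the IkB kinases CHUK and IKBKB, the AP-1 subunit JUN, and the related kinases MAP3K2, MAP3K3 and MAP3K4. All but MAP3K2 and MAP3K4 were above background on every array. Between genotypes 6 were higher and 7 lower untreated and 7 were higher and 6 lower with CM. The median log2 differences were -0.04 and 0.03, and 0 passed (limma). At an unadjusted p under 0.05 were 0 untreated and 1 with CM (limma), against 9.27% and 8.09% of all genes. That 1 was MAP2K2, which encodes MEK2, a kinase that acts on ERK, and was 0.29 higher on arrays labelled MEKK1-/- with CM (unadjusted p = 0.0230, adjusted p = 0.568) and 0.23 higher untreated (adjusted p = 0.563). JUN differed by 0.06 and -0.01 (adjusted p = 0.947 and 0.996). Averaged over treatments 0 of 13 passed and 3 had an unadjusted p under 0.05 (limma). Of all genes 15.5% did, and 22.6% of those above background on every array. The 3 were MAP2K2 (0.26, adjusted p = 0.158), higher on arrays labelled MEKK1-/-, and MAPK9 (-0.14, 0.277) and MAPK8 (-0.12, 0.293), both lower. With CM 0 of 13 passed in MEKK1+/+ cells (2 at an unadjusted p under 0.05, as were 16.8% of all genes). In cells labelled MEKK1-/- 1 passed (3 at an unadjusted p under 0.05, as were 16.2% of all genes). Of all genes 5.01% and 4.69% passed, and of genes above background on every array 10.6% and 10.0%. The 1 was MAPK3, which encodes ERK1 and rose by 0.46 (adjusted p = 0.0150, limma). In MEKK1+/+ cells its difference was 0.20 (adjusted p = 0.341), and its interaction did not pass.

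The genes whose levels followed MAP3K1 most closely over the 16 arrays were sought among the 6922 other genes above background on every array. They were FASTKD1, a mitochondrial protein of the FASTK family (Pearson r = 0.905), KIF23, a kinesin of the dividing cell's midzone (0.855), DDX3X, an RNA helicase (0.827), C1QTNF3, a secreted C1q-related protein (0.812), and LOC100044862 (0.809). Within the 8 MEKK1+/+ arrays r was 0.823, 0.640, 0.691, 0.645 and 0.857 for these genes, and within the 8 arrays labelled MEKK1-/- it was 0.928, 0.756, 0.865, 0.774 and 0.747. None of the 5 lies among the 80 neighbours, and none passed between genotypes (limma, adjusted p from 0.0997 to 0.427 averaged over treatments). Of the neighbours above background on every array, TAF9 was closest (r = 0.673, rank 75), then ZFP131 (0.586), both named after their values were seen. Of the members, PLK2 had r = 0.408 with MAP3K1, SKIV2L2 0.257, GPBP1 0.204, PPAP2A 0.125 and PDE4D -0.05. The median over all compared genes was 0.05. These are descriptions over arrays that share groups and, where numbers pair them, cultures.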

How the data were processed

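The authors deposited 1 intensity per gene symbol and array on a linear scale for 18132 genes and 16 arrays. Per the labels, a core facility normalized these intensity values before deposit and raw values were not kept. The normalization, any background correction and the rule for several probes of 1 gene are not given in the sources used here. No symbol has more than 1 row. Columns were tied to samples by their accession and title, 0 columns were of no sample, and 0 were identical. Precision is limited by the number of arrays and by signal over background.

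From these values log2 intensities were quantile normalized between arrays. A single linear model of all 4 groups was fitted in limma 3.58.1 (lmFit, then eBayes; R 4.3.3), leaving 12 residual degrees of freedom. Comparisons were genotype within each treatment, its average, CM within each genotype, and the interaction. Adjusted p values in the text come from limma, with the Benjamini-Hochberg method applied to all genes and a threshold of 0.05, and single genes also had 2-sided exact permutation tests over arrays. The steps were tested on simulated data. Symbols were matched to the RefSeq gene table of GRCm38.p6 for names and gene order (14305 by current symbol, 2904 by an older one, 923 not). Genes named are the members, their nearest 2 measured genes on each side, neighbours that passed or did not overlap the same way in both treatments between genotypes, the 5 genes most correlated with MAP3K1, and the cascade list (1 gene of which is not reported here), and other names are said to be chosen after their values were seen. The members and lists were chosen with earlier results of these data known.

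Alternatives were values as deposited, a common median, limma on z-scores of each array, a z-test on those scores (the difference over the standard deviation of all differences), a pseudocount of 16, genes above the median level, genes above background on at least 4 arrays, fits of only the groups compared, array weights, eBayes with a trend and robust settings, replicate blocks and each array left out. To see whether replicate numbers pair arrays, group means were removed and arrays with the same number were correlated over genes. For arrays labelled MEKK1-/-, untreated against CM, the correlation was 0.505, 0.403, 0.219 and 0.251, all above 0.1, so numbers pair these arrays, and this rests on the check and not on the labels. It was -0.04, 0.48, 0.12 and 0.58 for MEKK1+/+ arrays and mostly negative between genotypes, so neither passed this check in full. For MEKK1+/+ arrays that does not show the numbers to be unpaired. Their summed macrophage marker intensity followed the number, at 23294, 9920, 20910 and 16079 untreated and 23018, 8574, 20839 and 16226 with CM.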

Additional observations from a re-analysis of the deposited data

Results flagged for a closer look

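Of 24 groups of 4 arrays (6 detected genes in 4 groups), 2 held 1 array far from the other 3 by Dixon's test, where chance gives about 1 in 20. In untreated MEKK1+/+ cells GPBP1 was lowest in replicate 4, at 8.92 against 9.41 in the next array, a gap of 0.911 of the group's range. Without that array GPBP1 differed by -0.26 between the untreated genotypes (adjusted p = 0.729, limma) and by -0.46 with CM in MEKK1+/+ cells (adjusted p = 0.0639), against -0.13 and -0.33 with all arrays. In untreated cells labelled MEKK1-/- PLK2 was lowest in replicate 1, at 10.99 against 11.68 in the next array, a gap of 0.957 of the range. Without that array the fall of PLK2 with CM in cells labelled MEKK1-/- was -0.87 (adjusted p = 0.0145, limma) and the untreated genotype difference was 0.49 (adjusted p = 0.697). That array is also 1 of the pair with high epithelial marker signal, and the part of those cells in the value was not tested.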

How the results depend on the processing

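MAP3K1 kept its direction between genotypes under every alternative run, at 0.26 to 0.59 untreated, 0.18 to 0.56 with CM and 0.22 to 0.48 averaged (the lowest on the z-score scale), and with single arrays left out at 0.46 to 0.60, 0.23 to 0.48 and 0.38 to 0.50. It passed the threshold once, with array weights (0.48 averaged, adjusted p = 0.0358, limma), and its adjusted p for the average ran from 0.0358 to 0.746. The PPAP2A call in MEKK1-/- cells was lost in the z-test too (-0.26 on the z-score scale, adjusted p = 1.00). Signal close to background limits what can be said of MAP3K1 and PDE4D.

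Over the 36 results of the detected members, 54 of 1033 values under an alternative had the opposite sign, 31 of them with 1 array left out, and 0 of the 54 passed the threshold. All belong to differences of at most 0.19 in size. On values as deposited these were the MAP3K1 response in MEKK1+/+ cells (-0.31) and its interaction (0.15), GPBP1 between genotypes with CM (0.090), PPAP2A between genotypes (-0.24 untreated, 0.0093 with CM) and in interaction (0.25), SKIV2L2 untreated (-0.087), and PDE4D with CM (0.23) and averaged (0.061). With a common median they were the MAP3K1 response in MEKK1+/+ cells (-0.019), PPAP2A untreated (-0.26) and SKIV2L2 untreated (-0.11) and averaged (-0.039). PPAP2A untreated was -0.020 on z-scores and in the z-test. With array weights PDE4D was -0.0069 in its MEKK1-/- response and -0.0064 in interaction. Without both arrays labelled MEKK1-/- and numbered 1, a choice made after seeing the data, they were PLK2 in interaction (-0.020), PPAP2A averaged (0.013), SKIV2L2 with CM (-0.038) and in interaction (-0.10), and PDE4D in its MEKK1-/- response (-0.050) and interaction (-0.035). The causes were not tested. With single arrays left out, results that changed sign ranged from -0.12 to 0.13 for the MAP3K1 response in MEKK1+/+ cells, -0.17 to 0.046 (GPBP1 with CM), -0.043 to 0.20 (GPBP1 interaction), -0.063 to 0.047 and -0.071 to 0.049 (PDE4D responses in MEKK1-/- and MEKK1+/+ cells), -0.10 to 0.030 (PDE4D with CM), -0.048 to 0.081 (PDE4D interaction), -0.081 to 0.25 (PLK2 interaction), -0.0094 to 0.076 (PPAP2A untreated), -0.038 to 0.37 (SKIV2L2 with CM) and -0.17 to 0.23 (SKIV2L2 interaction).

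The number of genes called over the table moved more. Between genotypes the z-test called 221 untreated, 205 with CM and 232 averaged, and 233 and 232 in the responses of MEKK1+/+ and MEKK1-/- cells and 73 in interaction. A common median gave 7 with CM, 1159 averaged and 463 in the MEKK1-/- response. Values as deposited gave 1 averaged and 45 in the MEKK1-/- response. Array weights gave 1 untreated, 2.3e+02 averaged (rounded) and 1355 in the MEKK1-/- response. Z-scores gave 5 averaged, and eBayes with trend and robust 16. Only the 2 groups compared gave 0 with CM and 588 in the MEKK1+/+ response. Without both arrays numbered 1 the counts were 1, 2 and 11. With single arrays left out the counts ran from 0 to 1 untreated, 0 to 2 with CM, 2 to 166 averaged, 506 to 1007 and 477 to 1027 in the responses, and 0 to 1 in interaction.

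Of the neighbours, a common median called 3 between genotypes averaged, and the z-test 1 in interaction. In the MEKK1+/+ response the counts were 2 (as deposited), 1 (common median), 3 (z-scores), 2 (z-test), 9 (array weights) and 8 (block within genotype). In the MEKK1-/- response they were 0, 0, 1 (z-test) and 8 (array weights). With single arrays left out they ran from 1 to 7 and 2 to 5.

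With the replicate number as a fixed replicate block, the adjusted p of MAP3K1 was 0.479 untreated, 0.613 with CM and 0.141 averaged, and 9 genes over the table passed averaged over treatments. As a random block within genotype it was 0.449, 0.597 and 0.154. Apart from the PLK2 and PPAP2A responses and the neighbour count given above, the block within genotype changed no call of a member. A rule for several rows of 1 gene had nothing to act on, and a fit of only 2 groups gives no average or interaction.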
